A study of Rattus norvegicus with 12 samples.

Results

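The genes described here are known to be induced, with a delay, in active neurons: the transcription factor CREM, the secreted signals CRH and INHBA, the synaptic protein NPTX2, the G protein regulator RGS4, the proteases PLAT and MMP9, and the protease inhibitor TIMP1. Their spots were found by gene symbol alone: every spot whose annotated symbol is one of these 8 was taken, whatever its values. This gave 13 spotted complementary DNA clones, of 9600 spots and 6284 named genes in all: 4 clones of PLAT, 2 each of CRH and TIMP1, and 1 each of CREM, INHBA, NPTX2, RGS4 and MMP9. A clone is named below by its gene and spot number. Since human clones were probed with rat RNA, a spot may also bind related rat transcripts, which was not tested.

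Hippocampal neurons from Sprague Dawley rat embryos (embryonic day 18.5) were grown for 12 days, per the study's methods on top of a layer of glial cells, so that the RNA is that of a mixed culture. Before treatment, every culture spent 3 h in a silencing mixture of the glutamate receptor blockers D-APV (50 µM) and CNQX (40 µM) and the sodium channel blocker TTX (100 nM). In the BiC/4AP groups the network was then activated with bicuculline (BiC, 50 µM), an antagonist of GABA receptors, together with the potassium channel blocker 4-aminopyridine (500 µM), while the Block groups stayed in the silencing drugs. Per the methods, the silencing drugs were washed out before activation, and cultures without ActD received its solvent, DMSO. Each was measured at 5, 30 and 60 min, with actinomycin D (ActD, 25 µM), which stops transcription, or without it, on 1 array per condition and 12 arrays in all. The labels give the times as the length of treatment, whereas the methods describe a short stimulus followed by later harvests. Times below are the labelled ones. No condition has a replicate array. Tests therefore compare arrays over 6 pairs labelled alike except for activity, or 4 sets labelled alike except for time. Nothing in the labels says that arrays of different conditions came from separate platings.

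Neuronal firing lets calcium into the cell, and calcium and cyclic AMP signals activate the transcription factor CREB, which binds a DNA element called the cyclic AMP response element (CRE). Immediate early genes respond first, and the genes described here belong to the later wave, whose products change transcription (CREM, which includes the short repressor ICER), act on other cells (the stress peptide CRH and activin A, a dimer of INHBA), cluster glutamate receptors (NPTX2), shorten G protein signals (RGS4) or cut and protect the extracellular matrix (PLAT, MMP9, TIMP1). Because this wave needs new RNA, it is the kind of response that ActD is known to prevent.

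The promoter sequences are shown because CREM and its relatives act through the CRE. RefSeq promoters of the rat genome (build GRCr8, 250 bases before to 50 bases after a start site) were matched by symbol for 5 of the 8 genes, giving 7 promoters, 3 of them of Crem. Crh, Plat and Mmp9 were not matched. The full CRE (TGACGTCA, both strands) was present in 1.83% of all 33469 promoters and in 2 of the 3 Crem promoters, and in none of the other 4. Its core (TGACG, both strands, which lies within the full CRE) was present in 21.2% of all promoters, and in those of Crem, Nptx2, Rgs4 and Timp1, but not in that of Inhba. The windows below hold the match in capitals, on the strand of the gene. In Rgs4 the core is read on the opposite strand.
Crem, promoter 2, 56 bases before its start, chr17:58984730-58984759 (+): tgataggctggTGACGTCActgtgatgtca
Crem, promoter 3, 35 bases before its start, chr17:58985444-58985473 (+): gttcaaagggcTGACGTCAttacatttcct
Nptx2, 90 bases before its start, chr12:15162120-15162146 (-): cgccctcctcaTGACGcgaatgccgga
Rgs4, 153 bases before its start, chr13:84476022-84476048 (-): catcccccatgCGTCAgtagtttcttc
Timp1, 215 bases before its start, chrX:3771322-3771348 (-): aggaatgtgcaTGACGgagctggggga

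The AP-1 site (TGANTCA) was present in 7.33% and the CArG box (CC, 6 of A or T, GG) in 1.64% of all promoters, and neither was found in any of the 7. A match is a description of the letters in these windows only.

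The arrays had a median raw intensity of 52.6 to 137, highest at 5 min. The last position of each run of 25 spots is never listed in the annotation. These 384 positions served as a measure of dim signal, with a 95th percentile of 10 to 20.4 per array. By that measure 10 of the 13 clones lay above it on all 12 arrays, as did 85.9% of all spots. TIMP1 2017 and PLAT 2520 lay above it on 11, and NPTX2 568 on only 4, so the NPTX2 values are close to those of positions with no listed clone. Marker clones of the cell types such a culture can hold were all above it on every array for neurons (11 of 11 clones), astrocytes (4 of 4) and microglia (5 of 5), and in part for the oligodendrocyte lineage (3 of 5) and for vascular and fibroblast cells (4 of 5). With 85.9% of all spots above it on every array, these counts do not show which cell types were present. Mean normalised levels of the neuron markers overlapped between BiC/4AP arrays (-0.14 to 0.32, log2 relative to the mean of all spots) and Block arrays (-0.14 to 0.38), as did those of the astrocyte markers (-0.19 to 0.63 in BiC/4AP and -0.29 to 0.65 in Block), the microglia markers (1.58 to 1.86 in BiC/4AP and 1.42 to 1.81 in Block) and the vascular and fibroblast markers (0.56 to 1.13 in BiC/4AP and 0.70 to 1.21 in Block). The oligodendrocyte lineage mean hardly overlapped, at -1.06 to -0.62 in BiC/4AP and -1.54 to -1.02 in Block, with its PDGFRA clone 1.84 higher in BiC/4AP (higher in 5 of 6 pairs, unadjusted p = 0.00945, adjusted p = 0.904, limma). By time the astrocyte mean was 0.51 to 0.65 at 5 min, -0.26 to -0.06 at 30 min and -0.29 to -0.09 at 60 min. The mean of the vascular and fibroblast markers was 1.01 to 1.21 at 5 min, 0.80 to 1.01 at 30 min and 0.56 to 0.71 at 60 min. The microglia mean was 1.42 to 1.69 at 5 min, 1.69 to 1.86 at 30 min, with the ranges nearly touching, and 1.58 to 1.72 at 60 min, and none of its 5 clones passed a test between times. The neuron mean overlapped between times, at 0.17 to 0.38, -0.14 to 0.32 and -0.14 to 0.34. The astrocyte mean thus moved with both comparisons against 5 min, and the vascular and fibroblast mean with all comparisons between times. The microglia mean moved with 30 against 5 min only. The oligodendrocyte lineage mean was mostly higher in BiC/4AP, with a small overlap. The median activity difference over its 5 clones was 0.16, far below PDGFRA. The part of these means in the comparisons below was not tested. No marker clone passed the activity test, and among the time calls the astrocyte markers ALDOC and GFAP had -1.88 and -0.52 at 30 against 5 min. In the same comparison DCN and LUM of the vascular and fibroblast markers had -0.72 and -0.55, but ACTA2 had 0.56. Of the neuron markers, ENO2 and STMN2 had 0.63 and 0.48, and TUBB3 and UCHL1 both had -1.04. The oligodendrocyte marker CNP had 1.05. In such bulk samples, fewer cells of a type and less RNA per cell cannot be told apart.

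In the fits over all arrays, member clones passed the test between times and not between active and silent cultures, although CREM differed by more in single pairs of active and silent arrays, as given below. RGS4, which speeds the return of G proteins to rest, was the brightest. At 5 min its raw intensity was 2059.6 and 1420.3 in BiC/4AP cultures without and with ActD, against 1962 and 1383 in Block cultures. At 30 min it was 2337 and 3580.3 in BiC/4AP, against 2528 and 4076 in Block, and at 60 min 4593 and 3230.4 against 2940.4 and 3939. All 8 later arrays were above all 4 arrays of 5 min. After normalisation RGS4 rose by 1.24 log2 at 30 min (95% interval half-width 0.38, adjusted p = 0.000737, limma) and by 1.04 at 60 min (half-width 0.38, adjusted p = 0.00203, limma) relative to 5 min, and passed the test under every alternative run. The 30 min value was 0.72 with the dimmest spots left out and 1.55 after median centring, and the 60 min value 0.60 and 1.76.

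**Figure D1:**
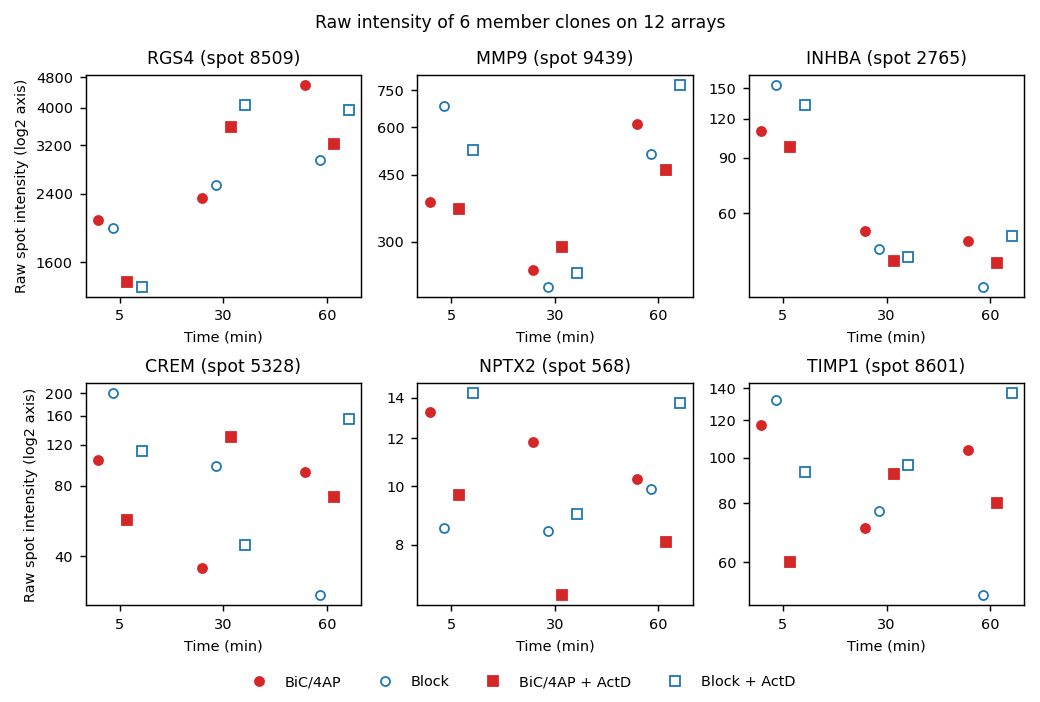
Raw spot intensity (log2 axis) of 6 clones at 5, 30 and 60 min, 1 point per array, with filled red points for BiC/4AP, open blue points for Block, and squares for arrays with ActD. RGS4 is lowest and INHBA highest on the 4 arrays of 5 min, whereas CREM, between 27.1 and 199.8, is spread over all times with no constant order of the groups.

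INHBA, the activin subunit, ran the other way. Its clone read 109.8 and 97.7 in BiC/4AP cultures without and with ActD at 5 min, against 153.8 and 132 in Block cultures. At 30 min the values were 52.8 and 42.3 against 46.1 and 43.6, and at 60 min 48.8 and 41.6 against 35.1 and 50.8. The 4 arrays of 5 min were above all 8 later ones. INHBA fell by 1.02 log2 at 30 min (half-width 0.34, adjusted p = 0.0011, limma) and by 1.08 at 60 min (half-width 0.34, adjusted p = 0.00106, limma), and passed the test under every alternative run. The value nearest 0 was the cyclic loess one, -0.67 at 30 min and -0.76 at 60 min.

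MMP9, a gelatinase that cuts the extracellular matrix, was lowest at 30 min. It read 382 and 367 in BiC/4AP cultures without and with ActD at 5 min, against 682 and 522 in Block cultures. At 30 min it read 252 and 291 against 229 and 248, and at 60 min 613 and 463 against 511 and 777. Its 30 min arrays did not overlap those of 5 or of 60 min. MMP9 fell by 0.52 log2 at 30 min against 5 min (half-width 0.34, adjusted p = 0.0195, limma), which was -0.21 after median centring and then not past the threshold, and was 0.96 higher at 60 than at 30 min (half-width 0.34, adjusted p = 0.0101, limma). The second difference was 0.89 to 1.03 with each of the 4 sets left out, and was past the threshold only without the BiC/4AP set without ActD. Its rise of 0.43 at 60 against 5 min (adjusted p = 0.0476, limma) was 0.08 after quantile normalisation and 0.10 after cyclic loess, neither past the threshold. With each set left out it was 0.32 to 0.49 and in no case past it, and the 30 min fall, -0.69 to -0.42, passed only without the BiC/4AP set without ActD.

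In total 5 of 13 member clones passed an adjusted p of 0.05 at 30 against 5 min, where 44.5% of all spots did. Of these, 2 were higher (20.1% of all spots) and 3 lower (24.4%). At 60 against 5 min 6 of 13 passed, where 36.6% of all spots did, 3 of them higher (16.2%) and 3 lower (20.5%). At 60 against 30 min the MMP9 clone alone passed, beside 3.15% of all spots (3.03% higher and 0.115% lower). The members' shares were thus close to those of the whole array. Arrays did not overlap between 30 and 5 min for 2 higher and 4 lower clones (42.3% of all spots in either direction), and between 60 and 5 min for 2 higher and 2 lower clones (40.7%). Between 60 and 30 min they did not overlap for 1 higher clone, MMP9 (11.2% of all spots in either direction). The labels of arrays of 1 time begin with consecutive numbers, whose meaning is not stated. Arrays of 1 time may share a hybridisation, which could not be told apart from time.

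**Figure D2:**
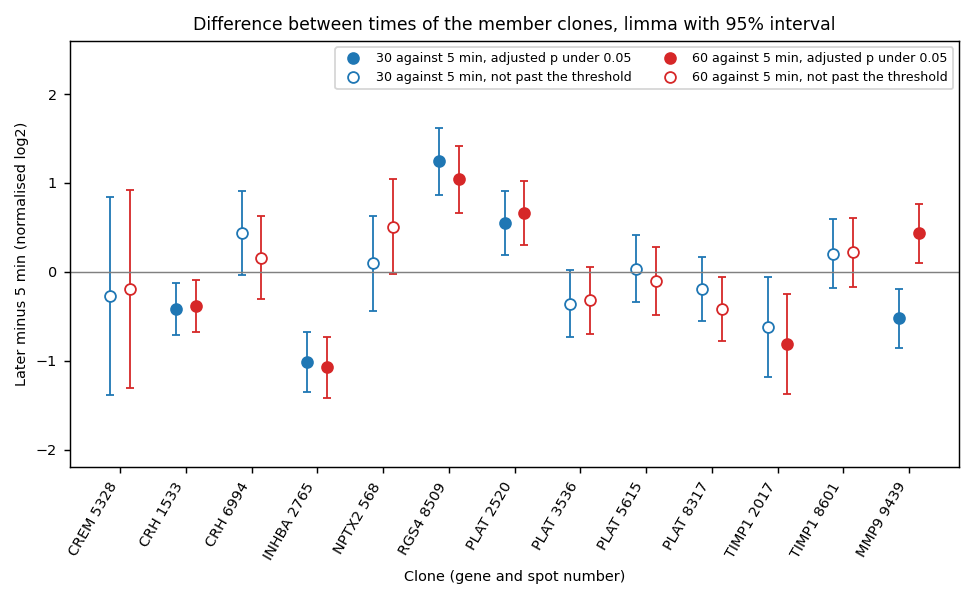
Normalised log2 difference of 30 (blue) and 60 min (red) from 5 min for each of the 13 clones, with 95% intervals from limma over 4 sets of arrays. Filled points passed an adjusted p of 0.05: RGS4 and PLAT 2520 above 0 at both times, INHBA and CRH 1533 below 0 at both, MMP9 below 0 at 30 and above 0 at 60 min, and TIMP1 2017 below 0 at 60 min.

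The remaining time calls were each of 1 clone of a gene with several. PLAT 2520, a clone of tissue plasminogen activator, the protease that turns plasminogen into plasmin, rose by 0.54 log2 at 30 min (adjusted p = 0.0224, limma) and by 0.66 at 60 min (adjusted p = 0.0121, limma). With each set left out the values were 0.44 to 0.69 and 0.49 to 0.80, past the threshold at 30 min only without the Block set with ActD, and at 60 min without either the BiC/4AP set without ActD or the Block set with ActD. Its raw intensity lay between 16.3 and 27.8 on all 12 arrays, while the array medians were lower at 30 and 60 min. The other 3 PLAT clones lay between -0.42 and 0.04 and did not pass. CRH 1533 fell by 0.42 at 30 min (adjusted p = 0.0286, limma) and by 0.38 at 60 min (adjusted p = 0.0457, limma), whereas CRH 6994 had 0.44 and 0.16 and did not pass. Both CRH differences lost the threshold under most alternatives, with -0.14 at 30 min and -0.23 at 60 min after median centring. TIMP1 2017 fell by 0.81 at 60 min (half-width 0.56, adjusted p = 0.0309, limma), whereas TIMP1 8601, the brighter clone of this inhibitor of matrix metalloproteinases, had 0.22 (half-width 0.39). The TIMP1 2017 value was -0.68 after median centring and -0.54 after quantile normalisation, neither past the threshold. Of the 4 fits with 1 set left out, CRH 1533 (-0.50 to -0.34 at 30 min and -0.52 to -0.31 at 60 min) and TIMP1 2017 (-0.90 to -0.62 at 60 min) passed only without the BiC/4AP set with ActD. CREM had -0.27 at 30 min and -0.19 at 60 min, each with a half-width of 1.11, and NPTX2 had 0.09 and 0.51, each with a half-width of 0.54.

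The comparison of BiC/4AP with Block asked whether these genes differed between active and silent cultures. Over the 6 matched pairs 0 of 13 clones passed (0.0% of all spots did), and 0 had an unadjusted p under 0.05, beside 5.19% of all spots. The differences ran from -0.17 (PLAT 5615) to 0.22 log2 (PLAT 2520), with adjusted p of 0.904 to 0.983 (limma). Their median was -0.08, where that of all spots was -0.0029, and 3 of the 13 were above 0. The half-widths of the 95% intervals were 0.22 for CRH 1533 at the narrowest and 0.90 for CREM at the widest. An induction of these genes by activity, for which they are known, was thus not detectable in the mean over all pairs at this precision. That mean includes the pairs with ActD, which is known to prevent such a response, and the pairs of the earlier times. The pair of the latest time without ActD had 7 of the 13 clones above 0, close to the share of all spots (51.4%). The median of the 13 clones there was 0.09, where that of all spots was 0.01. It has no replicate array, so a delayed response in that pair alone was not tested. Times later than those labelled were not measured. No clone was higher in 6 of 6 pairs (2.98% of all spots were) and none was lower in 6 of 6 (0.844%).

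RGS4 was the nearest to a constant direction. It was higher in BiC/4AP in 5 of 6 pairs, with normalised differences of 0.56, 0.01 and 0.29 at 5, 30 and 60 min without ActD and 0.23, -0.33 and 0.13 with ActD. The mean was 0.15 (half-width 0.28, adjusted p = 0.906, limma). At 60 min without ActD the raw values were 4593 in BiC/4AP and 2940.4 in Block, but the medians of those arrays were 69.6 and 52.6. PLAT 2520 was higher in 4 of 6 pairs, and INHBA averaged -0.05 (half-width 0.25).

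CREM was the clone with the widest swings. Without ActD it read 103, 35.5 and 91.8 in BiC/4AP at 5, 30 and 60 min, against 199.8, 97.6 and 27.1 in Block. With ActD it read 57.0, 130.2 and 71.9 in BiC/4AP, against 114, 44.8 and 155 in Block. It was thus lower in BiC/4AP at 5 min in both ActD states, lower at 30 min and higher at 60 min without ActD, and the reverse of this with ActD. The differences were -0.66, -1.38 and 1.31 log2 without ActD and -0.85, 1.31 and -0.75 with ActD, and their mean of -0.17 had a half-width of 0.90. The SD of its normalised level over the 12 arrays, 0.65, lay at the 88.8th percentile of all spots.

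The study's own measure for a single pair is the z-fold, here the difference of z-scores divided by its SD over all spots, with a threshold of 1.4. Of the 78 combinations of 13 clones and 6 pairs, 3 lay above 1.4 and 4 below -1.4. Of all spots, 4.6%, 7.91% and 7.69% lay beyond 1.4 in either direction at 5, 30 and 60 min without ActD, and 5.81%, 8.2% and 6.32% with ActD. CREM gave 4 of these 7: -2.44 at 30 min and 2.50 at 60 min without ActD, and -1.53 at 5 min and 2.30 at 30 min with ActD. The others were NPTX2 with 1.41 at 5 min without ActD (13.3 in BiC/4AP and 8.51 in Block), TIMP1 2017 with -1.87 at 30 min with ActD (15.0 in BiC/4AP and 25.7 in Block), and PLAT 8317 with -1.41 at 60 min with ActD (26.2 in BiC/4AP and 55.3 in Block). At 5, 30 or 60 min no clone passed 1.4 the same way in both ActD states, where 1.07%, 1.05% and 0.927% of all spots were. With 1 array on each side these values have no replicate check.

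**Figure D3:**
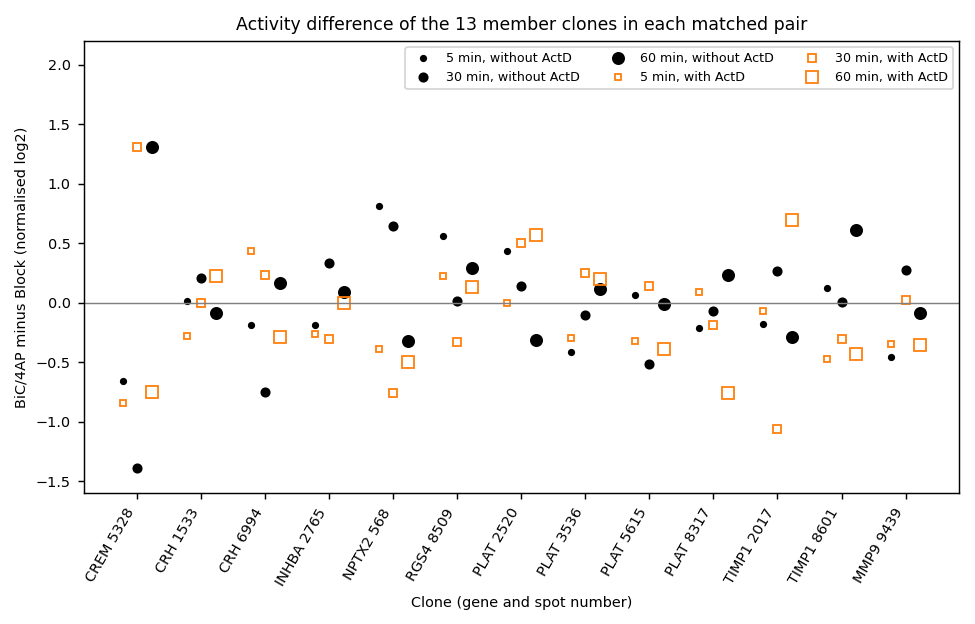
Normalised log2 difference of BiC/4AP from Block for each of the 13 clones in the 6 matched pairs, with filled circles for pairs without ActD, open squares for pairs with ActD, and larger symbols for later times. CREM spans -1.38 to 1.31, while every pair of the other clones lies between -1.06 and 0.81, on both sides of 0 for all 13 clones.

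By time, the median difference over the 13 clones without ActD was -0.18 at 5 min, 0.01 at 30 min and 0.09 at 60 min, and with ActD -0.28, -0.0021 and -0.29, where that of all spots lay between -0.01 and 0.03. At 60 min, the latest time measured, 0 of 13 clones passed over the pairs without and with ActD together. Of these clones, 0 had an unadjusted p under 0.05 (2.44% of all spots did). RGS4 had 0.21 (half-width 0.44), CREM 0.28 (half-width 1.78) and NPTX2 -0.41 (half-width 1.01) there.

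The comparison without and with ActD asked whether a response needed new transcription. ActD alone, over 6 pairs matched by time and activity, moved 0 of 13 clones past the threshold (0.0104% of all spots passed), and 0 had an unadjusted p under 0.05 (2.09% of all spots did). The values ran from -0.43 log2 for TIMP1 2017 (half-width 0.45) to 0.27 for PLAT 8317 (half-width 0.33), with a median of 0.03. For the activity difference, the 3 pairs with ActD had -0.55 for NPTX2 (unadjusted p = 0.0491, adjusted p = 0.937, limma) and -0.40 for TIMP1 8601 (unadjusted p = 0.0329, adjusted p = 0.937, limma). These were 2 of the 13 with an unadjusted p under 0.05, which 4.52% of all spots had. The 3 pairs without ActD had 0.38 and 0.25 for the same clones. The test of the difference itself, without minus with ActD, gave 0.92 for NPTX2 (half-width 0.77, unadjusted p = 0.0254) and 0.65 for TIMP1 8601 (half-width 0.51, unadjusted p = 0.0192), both with an adjusted p of 0.998 (limma). These were the 2 members of 13 with an unadjusted p under 0.05 there, beside 2.95% of all spots. NPTX2 read 13.3, 11.9 and 10.3 in BiC/4AP without ActD at 5, 30 and 60 min, against 8.51, 8.43 and 9.89 in Block. With ActD it read 9.66, 6.59 and 8.07 in BiC/4AP, against 14.2, 8.98 and 13.7 in Block, so that BiC/4AP was the higher raw value without ActD and the lower with ActD at every time, at levels near those of unlisted positions. After normalisation the 60 min pair without ActD was -0.32.

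Most pairs of member clones of 1 gene did not vary together across the arrays. Of the 8 pairs of clones of PLAT, CRH or TIMP1, 3 had a Pearson's r above 0 over the 12 arrays, and the median r was -0.374. Over 1488 genes with at least 2 clones, using only the first 2 of each, the median was 0.149, and 59.2% were above 0. Most of the 8 member pairs are of PLAT and share clones, so these medians are not like for like. Within times, after removing the mean of each time, the medians were -0.052 for the member pairs and 0.064 for all genes. The most opposed pair was PLAT 2520 with PLAT 8317 (r = -0.781, and -0.711 within times), and the most alike was PLAT 3536 with PLAT 8317 (0.421, and 0.184 within times). PLAT 3536, 5615 and 8317 had r of 0.042 to 0.421 with each other, whereas the dim PLAT 2520 had -0.781 to -0.332 with them. CRH 1533 and 6994 had -0.415, and TIMP1 2017 and 8601 had -0.445. These correlations describe arrays that share their conditions and carry no p. PLAT 3536 ran from 104 to 326 and PLAT 5615 from 91.3 to 233, against 22.3 to 78.1 for PLAT 8317 and 16.3 to 27.8 for PLAT 2520. Where 2 clones of a gene differ, the files do not say which reads the rat transcript.

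**Figure D4:**
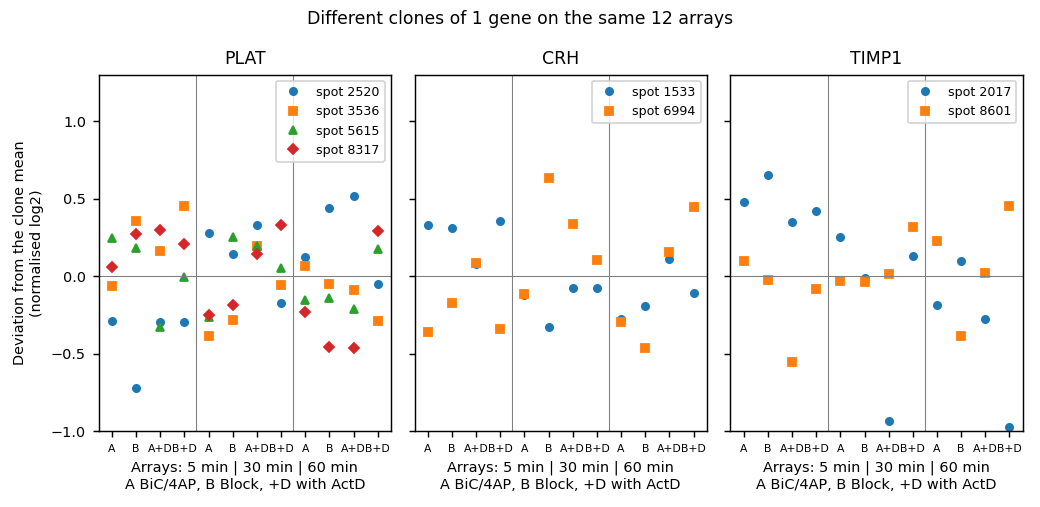
Deviation of each clone from its own mean (normalised log2) on the 12 arrays for PLAT, CRH and TIMP1, with 1 symbol per clone and grey lines between times. PLAT 2520 is low at 5 min where PLAT 8317 is high, and the clones of CRH and of TIMP1 differ in which arrays are high (r of -0.415 and -0.445).

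For the brightest clone of each gene, the 2 clones of other genes with the most similar profile were found among the 4371 to 4373 named clones brighter than the median spot. RGS4 was most like VCAM1 (r = 0.995) and ADAT3 (0.991), MMP9 like NDUFS1 (0.983) and RPL13 (0.978), and INHBA like UCN2 (0.975), a peptide of the CRH family, and YARS1 (0.971). CREM was most like COG8 (0.957) and TUBB (0.948), PLAT 3536 like HSPA2 (0.918) and WDR4 (0.898), and TIMP1 8601 like NCL and SPATC1L (both 0.908). NPTX2 was most like ADSL (0.890) and FYN (0.877), and CRH 6994 like MAP4 (0.861) and SELENOF (0.853). They are the extremes of many profiles over 12 arrays of shared conditions, and no p is attached.

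The wider pathways of these genes had calls between times and none between BiC/4AP and Block. Of the CREB family and its kinases, 10 clones of 6 genes were measured, and at 30 against 5 min 3 rose and 4 fell (7 of 10, where 44.5% of all spots were called). CREB1 itself rose by 0.78 log2, and PRKAR2A, a regulatory subunit of protein kinase A, by 1.26. The calcium-dependent kinase CAMK4 fell by 1.04, and both clones of CREB3 fell, by 0.95 and 1.64. ATF4, a stress-responsive relative of CREB, had 1 clone that rose by 0.95 and 1 that fell by 0.45. At 60 against 5 min 3 rose and 3 fell (36.6% of all spots were called), among them PRKACB, a catalytic subunit of protein kinase A, with 0.38. One clone, ATF4 5029, rose at 60 against 30 min, by 0.77 (1 of 10 clones, beside 3.15% of all spots). The smallest unadjusted p for activity was that of ATF4 5029 with -0.25 (adjusted p = 0.904, limma).

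Around INHBA and CRH, 11 clones of 10 genes of the activin pathway were measured, with 2 higher and 6 lower at 30 against 5 min (20.1% and 24.4% of all spots). The inhibin alpha subunit INHA fell by 1.54 log2, the follistatin-like protein FSTL1 by 0.87 and the activin subunit INHBE by 0.70. The signal transducers SMAD2, SMAD4 and SMAD3 fell by 0.60, 0.42 and 0.41, whereas the receptor ACVR1B and the decoy receptor BAMBI rose by 0.49 and 0.46. At 60 against 5 min 3 rose and 4 fell (16.2% and 20.5% of all spots), with FST, the activin-binding follistatin, 0.67 higher and SMAD2 0.57 higher. Both also passed at 60 against 30 min, at 0.66 and 1.17 (2 of 11 clones, beside 3.15% of all spots). For activity SMAD2 had -0.31 (adjusted p = 0.904, limma). The CRH family was represented by UCN2 alone, which fell by 1.26 at 30 min, fell by 1.14 at 60 min and had -0.06 for activity (adjusted p = 0.948, limma).

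NPTX2 acts on AMPA receptors, of which only GRIA2 was measured. It rose by 1.02 log2 at 30 min and 1.20 at 60 min and had -0.37 for activity (adjusted p = 0.906, limma). Of the RGS proteins and their G protein targets, 13 clones of 12 genes were measured, and 2 rose and 2 fell at each of 30 and 60 min. This is 30.8% of the clones, below the 44.5% and 36.6% of all spots called at these times. RGS17 rose by 1.01 and 0.71 and the G protein subunit GNAI2 by 0.58 and 0.60, while RGS16 fell by 0.90 and 0.88 and RGS14 by 0.69 and 0.65. RGS17, the clone with the smallest activity p of its list, was higher in BiC/4AP in 6 of 6 pairs, as were 2.98% of all spots. Its mean activity difference was 0.29, with an adjusted p of 0.904 (limma).

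Of the plasminogen system, 9 clones of 5 genes were measured, with 3 higher and 3 lower at each of 30 and 60 min (66.7%, beside 44.5% and 36.6% of all spots). The urokinase PLAU, a second plasminogen activator, rose by 0.61 and 0.74 log2 and S100A10, a plasminogen receptor subunit, by 0.49 and 0.47. The urokinase receptor PLAUR fell by 0.62 at 30 min. ANXA2, the partner of S100A10, had clones in both directions, from -1.09 to 0.73 at 30 min and from -1.57 to 0.63 at 60 min among those that passed. Of the other matrix metalloproteinases and inhibitors, 9 clones of 8 genes were measured. At 30 min 4 rose, MMP28 by 1.10 and 0.46 in its 2 clones, MMP2 by 0.81 and MMP1 by 0.48, and MMP7 fell by 0.50 (5 of 9 clones, beside 44.5% of all spots). At 60 min MMP28 2861 was 0.79 higher and the inhibitor TIMP3 fell by 2.41 (2 of 9 clones, beside 36.6%). For activity PLAU had 0.15 and TIMP4 0.23 (both adjusted p = 0.904, limma).

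A further list of activity-related neuronal genes, not all of the later wave, had 6 clones of 4 genes. Of these clones, 3 passed at 30 min and 4 at 60 min (44.5% and 36.6% of all spots). HOMER1, a postsynaptic scaffold protein with a known activity-induced short form, rose by 0.60 log2 at 30 min and 0.58 at 60 min, and PTGS2, the inducible cyclooxygenase, by 0.69 at 60 min. Both clones of STC2, a secreted glycoprotein, fell, with -1.15 and -0.69 at 30 min and -1.18 and -0.68 at 60 min. HOMER1, the clone with the smallest activity p of its list, was higher in BiC/4AP in 6 of 6 pairs, as were 2.98% of all spots. Its mean activity difference was 0.20, with an adjusted p of 0.904 (limma). The median activity difference of the 6 clones was 0.13, where that of all spots was -0.0029. No clone of any of these lists passed the activity test.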

How the data were processed

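Per the labels, RNA of 3 pooled coverslips per sample was reverse-transcribed with 33P and hybridised to 1 nylon membrane. The methods describe other amounts of RNA and pooling of separate experiments. The authors deposited raw spot intensity, read from phosphorimager scans with spot-finding software, with no normalisation. A second deposited table held the same intensity in 115200 of 115200 values. Annotation was joined on the first index column of the table, by which 147 ribosomal protein clones had a mean z-score of 0.919, against 0.146 by the second. Of 9600 spots, 8517 are listed, 8496 with 1 symbol. The 21 with several were left unnamed.

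Intensity was turned into log2 and then into z-scores per array, rescaled by the SD of log2 intensity averaged over arrays (2.15). limma 3.58.1 (R 4.3.3, statmod 1.5.0) was fitted to all spots with matched pairs or sets as blocks, 13 comparisons in all, with Benjamini-Hochberg adjustment over all spots and a threshold of 0.05, two-sided. Only the fit of activity over all pairs was tested on simulated data, with independent normal noise. The fits between times and the others were not. The formula of the z-fold is not given in the sources used here, and its form was assumed. Precision is limited by the number of arrays. Each p-value reflects the spread between arrays of single conditions, which may be technical.

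The 8 genes, the lists and the tests were chosen with earlier results of these data known, although the rule that finds the spots uses only the symbol. Named were all member clones, their 2 most similar clones, and in the other lists (CREB, CRH, activin, pentraxin, RGS, plasminogen, metalloproteinase and other activity-related genes) clones past the threshold and the 1 with the smallest activity p. Cell type markers were fitted with all other spots, and their mean levels per array were compared. Alternatives were quantile, cyclic loess and median normalisation, leaving out dim spots or last positions, an added offset, missing values at the most frequent intensity of 10, an intensity trend, no pairing, and each pair or set left out.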

Additional observations from a re-analysis of the deposited data

Results flagged for a closer look

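TIMP1 8601 was higher in BiC/4AP than in Block in all 3 pairs without ActD (0.12, 0.01 and 0.61 log2 at 5, 30 and 60 min) and lower in all 3 with ActD (-0.47, -0.30 and -0.43). The test of this difference gave 0.65 (unadjusted p = 0.0192, adjusted p = 0.998, limma). Such opposite directions, either way round, were seen in 2.52% of all spots.

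PLAT 3536 was lower in BiC/4AP than in Block in both pairs of 5 min (-0.42 without and -0.29 with ActD) and higher in both of 60 min (0.12 and 0.20), a difference of 0.51 between times (adjusted p = 1.0, limma). A split of this kind, either way round, was seen in 7.41% of all spots. The same clone was higher with ActD at 5 min (0.22 in BiC/4AP and 0.10 in Block) and lower with ActD at 60 min (-0.15 and -0.24), a difference of -0.35 (adjusted p = 0.63, limma). Opposite directions of this kind, either way round, were seen in 21.8% of all spots. The other 3 PLAT clones did not show either split.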

How the results depend on the processing

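Every label gives the same replicate number, 1, which pairs no samples, so the pairs used are those matched by condition. Without these pairs as blocks the activity comparison called 0 spots, as with them, and 48 had an unadjusted p under 0.05, against 498. No member passed any activity or ActD comparison under any alternative. Of the time calls, those of RGS4 and INHBA passed in all 12 alternatives each. The count at 60 against 5 min, 6, was 3 after cyclic loess or quantile normalisation and 2 of 7 clones with the dimmest spots left out, which gave 3 at 30 against 5 min. With each set left out in turn the counts were 2 to 3 (30 against 5 min), 2 to 4 (60 against 5 min) and 0 to 1 (60 against 30 min). Over all spots, 3517 calls at 60 against 5 min were 2269 after cyclic loess and 2028 without the Block set without ActD, 4274 at 30 against 5 min were 2431 without the Block set with ActD, and 302 at 60 against 30 min were 462 with an intensity trend, 494 without the dimmest spots, 505 after median centring, 535 with the offset, and 0 without 3 of the 4 sets. Median centring put the median of all spots at 0.29 (30 min) and 0.36 (60 min) and the share of calls that were higher at 74.6% and 75.0%, against 45.2% and 44.1%. It was 54.8% at 60 min after quantile normalisation, and at 60 against 30 min 84.9% with the offset, against 96.4%.

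Of z-folds, 1 clone (0 otherwise) was beyond 1.4 in both ActD states at 5 min after quantile normalisation, without the dimmest spots, with the offset and without last positions. Combinations beyond 1.4, 2, 3 and 2 at 5, 30 and 60 min, were 5 at 30 and 1 at 60 min after quantile normalisation, 1 at 5 min after cyclic loess, 4 at 5 min without the dimmest spots, 6, 5 and 5 with the offset, 5 at 30 and 4 at 60 min without last positions, 4 at 60 min with the most frequent value missing, and 0, 0 and 0 for undivided differences. Activity values that changed sign, none of them past the threshold, were CRH 1533 (-0.0048 after cyclic loess, -0.0281 to 0.0722 with each pair left out) and, with each pair left out, NPTX2 (-0.27 to 0.0481), TIMP1 2017 (-0.26 to 0.0873), PLAT 3536 (-0.10 to 0.0343), CREM (-0.47 to 0.0727), CRH 6994 (-0.16 to 0.0709) and TIMP1 8601 (-0.21 to 0.0018). Signal near that of unlisted positions limits NPTX2, PLAT 2520 and TIMP1 2017.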
